A study of Mus musculus with 6 samples.

Results

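The core endothelial transcription factors described here are 10 genes, Erg, Fli1, Ets1, Ets2, Sox7, Sox18, Tal1, Gata2, Mef2c and Lyl1, out of 22026 gene symbols listed in each of 6 RNAseq samples of mouse choroid ECs. They were chosen by name, as ETS, SOXF, GATA, SCL and MEF2 factors known in ECs. Choroid ECs line the fenestrated vessels behind the RPE, the pigmented epithelium under the photoreceptors. Mice were taken at postnatal day 5 (P5), while the choroid was still developing, or at P30, when it was mature. The study methods name strain 129/B6 and both sexes for the P30 mice, and name neither strain nor sex for the P5 mice. In both groups the vessels of the living animal were stained by an injected antibody to VE-Cadherin, which joins ECs to each other, the RPE/choroid was dissected and digested, and stained cells were taken by flow cytometry and lysed at once. Each age had 3 independent isolations, and each isolation pooled 14 eyes of 7 animals. No altered allele and no drug is labelled for either group, and age is the difference between them by design. Handling differed with age, since P5 mice were cooled for anaesthesia and received less antibody, and this cannot be told apart from age. Sorting by VE-Cadherin selects by a product of Cdh5, a gene whose own level is given with the targets below.

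These factors bind DNA and hold the expression program of ECs in place. ETS factors (Erg, Fli1, Ets1, Ets2) recognize a GGAA core that lies in the enhancers of many endothelial genes, SOXF factors (Sox7, Sox18) bind beside them and act in arterial, lymphatic and sprouting decisions, and Mef2c is a MADS box factor that is held in check by class IIa histone deacetylases. Gata2 binds GATA sites, and Tal1 (also called SCL) and its close relative Lyl1 are bHLH factors that pair with E proteins on CANNTG boxes and join Gata2, Lmo2 and Ldb1 in 1 complex, both in ECs and in blood cells.

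Expression was read as FPKM, a level per length of transcript, so that the levels of different genes can be set beside each other. All 10 factors were among the 12481 genes tested, whose mean FPKM reached 5 at P5, at P30 or at both ages. Differences between ages were tested with limma on log2(FPKM + 1), with Benjamini-Hochberg adjustment over all genes tested. A wide call is an adjusted p under 0.05, and a strict call an adjusted p under 0.01 with at least a 2-fold difference in mean FPKM + 1. Values of single isolations stand in the order of replicates 1, 2 and 3. In a bulk sample, fewer cells of a type and less RNA per cell cannot be told apart.

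Gata2 rose and Sox7 fell past the strict call, and Tal1 rose and Fli1, Ets1, Ets2 and Lyl1 fell past the wide call. Erg, Sox18 and Mef2c passed neither. Strict calls therefore took in 1 of the 10 factors as higher, beside 5.89% of all genes tested, and 1 as lower, beside 5.82%. Wide calls took in 2 as higher, beside 16.1% of all genes tested, and 5 as lower, beside 22.4%. The 3 isolations of P30 all lay above those of P5 for 2 factors, beside 22.0% of all genes tested, and all lay below them for 6, beside 33.0%. In either direction 8 of the 10 did not overlap, beside 55.1%. The median difference of the 10 factors was -0.34 on the log2 scale, against -0.10 over all genes tested.

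**Figure D1:**
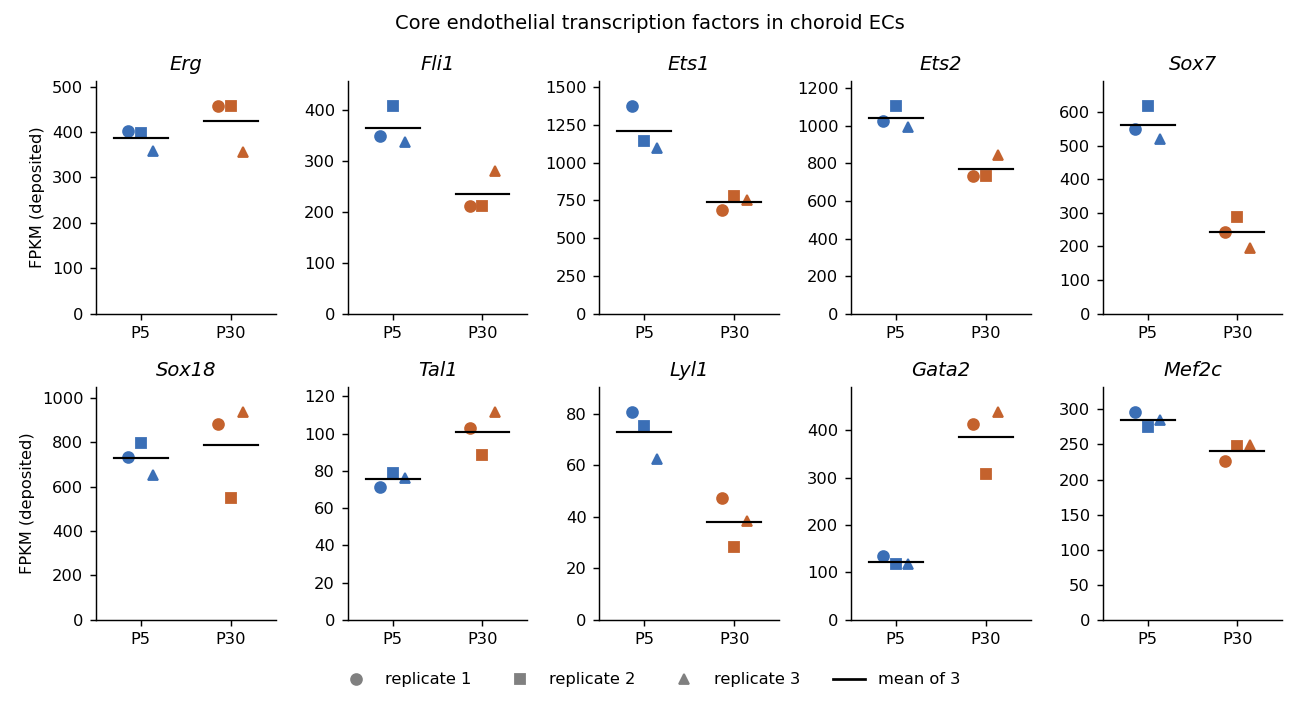
FPKM of the 10 core endothelial transcription factors in each isolation, one panel per gene with its own vertical axis starting at 0, a point shape for each replicate number of the 3 P5 and 3 P30 isolations, and a line at the mean of 3. The points of the ages do not overlap for Gata2 and Tal1, which lie higher at P30, or for Fli1, Ets1, Ets2, Sox7, Mef2c and Lyl1, which lie lower, while those of Erg and Sox18 overlap.

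The positions and the sequences before the start of transcription are shown first for the SCL complex genes, the group in which the direction differed between members. Coordinates are those of NCBIM37, the assembly that mm9 stands for. Gata2 lies at chr6:88143885-88157024 on the plus strand, Tal1 at chr4:114729031-114744360 on the plus strand and Lyl1 at chr8:87225356-87228614 on the plus strand. The RefSeq promoter table (GRCm38.p6) matched 6 of the 10 factors, Erg, Ets2, Tal1, Gata2, Mef2c and Lyl1, with 12 promoters in all. Each sequence below is the 250 bases before an annotated start, was found at 1 place of its chromosome in NCBIM37, and overlaps no annotated exon. They lie at chr6:88143635-88143884 and chr6:88148408-88148657 for Gata2, at chr4:114728781-114729030 and chr4:114730166-114730415 for Tal1 and at chr8:87225106-87225355 for Lyl1. Capitals mark GGAA, the ETS core, or TTCC, the same core on the other strand.
Gata2 promoter 1: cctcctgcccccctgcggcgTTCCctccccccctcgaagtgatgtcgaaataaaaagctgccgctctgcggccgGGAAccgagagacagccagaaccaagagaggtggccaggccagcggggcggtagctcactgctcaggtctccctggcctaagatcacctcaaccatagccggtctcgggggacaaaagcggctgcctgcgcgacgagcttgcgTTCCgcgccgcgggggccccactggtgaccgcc
Gata2 promoter 2: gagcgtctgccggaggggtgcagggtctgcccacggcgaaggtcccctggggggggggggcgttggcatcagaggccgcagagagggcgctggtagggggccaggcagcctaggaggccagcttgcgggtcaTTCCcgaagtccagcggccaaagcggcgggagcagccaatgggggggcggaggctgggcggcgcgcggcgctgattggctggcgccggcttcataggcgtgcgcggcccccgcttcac
Tal1 promoter 1: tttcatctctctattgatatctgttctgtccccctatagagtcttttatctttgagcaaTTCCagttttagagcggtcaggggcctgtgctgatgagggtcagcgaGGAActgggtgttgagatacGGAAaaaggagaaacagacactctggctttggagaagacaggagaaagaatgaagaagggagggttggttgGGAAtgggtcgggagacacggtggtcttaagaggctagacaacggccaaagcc
Tal1 promoter 2: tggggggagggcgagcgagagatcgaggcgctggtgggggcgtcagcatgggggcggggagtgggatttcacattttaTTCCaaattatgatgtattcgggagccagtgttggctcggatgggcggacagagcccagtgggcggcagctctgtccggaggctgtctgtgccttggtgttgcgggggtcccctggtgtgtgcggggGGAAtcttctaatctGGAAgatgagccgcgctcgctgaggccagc
Lyl1 promoter 1: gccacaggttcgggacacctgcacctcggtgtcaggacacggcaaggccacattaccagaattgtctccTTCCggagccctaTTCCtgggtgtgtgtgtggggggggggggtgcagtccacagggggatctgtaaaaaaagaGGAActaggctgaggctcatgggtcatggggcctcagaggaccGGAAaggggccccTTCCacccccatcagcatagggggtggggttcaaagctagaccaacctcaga

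The Lyl1 promoter held 5 GGAA cores on either strand, the first Gata2 promoter 3, the second 1, the first Tal1 promoter 4 and the second 3. GGAA is short, and 93.4% of the 32851 promoters of this length in the table held at least 1, with a median of 3. The longer CCGGAA, which overlaps GGAA, was found at 2 places in the Lyl1 promoter and in none of the others shown. At least 1 CCGGAA was found in 12.03% of all promoters and at least 2 in 2.49%. GATAA was found in the first Tal1 promoter and in none of the others shown (22.6% of all promoters) and CANNTG in the Lyl1 promoter alone of those shown (66.2% of all promoters), with both strands searched for each. A match of letters is not a binding site, and FPKM summed over a gene does not tell which of its promoters was used.

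Gata2, the GATA factor of ECs and of blood progenitors, had the largest difference of the 10. Its FPKM was 134, 117 and 118 at P5 and 412, 308 and 438 at P30. Each P30 isolation was far above each P5 isolation, with P30 replicate 2 the lowest of its age. The mean rose from 123 ± 9.50 to 386 ± 68.5 FPKM (SD, n = 3), 3.15-fold, and the difference of 1.63 on the log2 scale (SE 0.15) had an adjusted p of 0.000366 with limma and Benjamini-Hochberg adjustment. By mean FPKM, Gata2 stood above 76.3% of the genes tested at P5 and above 94.2% at P30, and moved from the eighth to the fifth place among the 10 factors.

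Gata2 was the only GATA gene that reached the minimum for the test. Gata1, Gata4 and Gata5 were listed at 0 in all 6 samples, Gata3 at no more than 0.86 FPKM, and Gata6 at 1.28 to 5.17 FPKM. Mast cells also express Gata2. The mast cell receptor genes Ms4a2 and Fcer1a were listed at 0 in every sample. Mcpt4 and Cma1, which encode mast cell proteases, were at 13.5 and 14.4 FPKM in P30 replicate 1 and at 0 in every other sample. The summed FPKM of the 8 mast cell markers was 30.3 to 46.2 at P5 and 66.5, 30.0 and 9.68 at P30. Of that sum Kit, the stem cell factor receptor, held 32.7, 27.8 and 43.4 FPKM at P5 and 11.35, 23.2 and 8.11 FPKM at P30. Tpsb2 and Cpa3, also in the sum, were at 14.4 and 5.26 FPKM in P30 replicate 1. In every other sample they were at no more than 1.22 FPKM. Of the 2 mast cell markers tested Kit was the 1 called, and it fell by 1.33 on the log2 scale (adjusted p = 0.0263, limma). Hdc, the other, was at 2.24 ± 0.543 FPKM at P5 and 5.34 ± 3.30 at P30 (SD, n = 3). Its log2 difference of 0.80 was not called (adjusted p = 0.299, limma). The part of mast cells in the difference of Gata2 was not tested. Of the 12481 genes, those whose log2 values over the 6 samples lay nearest to the centred profile of Gata2 were 1190002H23Rik (Euclidean distance 0.19), Sema3f (0.21), which encodes a secreted semaphorin, and B4galt4 (0.23), a galactosyltransferase gene.

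Tal1 and Lyl1, the SCL type bHLH factors, were close in level at P5 and apart at P30. Tal1 was at 71.2, 78.7 and 76.4 FPKM at P5 and at 103, 88.8 and 112 FPKM at P30. All P30 isolations were above all P5 isolations, by little in P30 replicate 2. The mean rose from 75.4 ± 3.84 to 101 ± 11.5 FPKM (SD, n = 3), 1.34-fold, with a log2 difference of 0.41 (SE 0.12, adjusted p = 0.0329, limma). This call was lost in 10 of 17 alternatives, more than that of any other of the 7 factors called. It was lost with a replicate block (adjusted p = 0.0726), without a trend of the spread with level (0.0514), with no minimum FPKM (0.0552), with samples scaled to the same summed FPKM (0.182), and when P5 replicate 1, 2 or 3 or P30 replicate 1 or 3 was left out (0.0575 to 0.114), and on scaling by 13 endothelial surface genes the difference was -0.013.

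Lyl1 fell. It was at 80.6, 75.4 and 62.5 FPKM at P5 and at 47.25, 28.4 and 38.5 FPKM at P30. Each P30 isolation was below each P5 isolation. The mean went from 72.8 ± 9.33 to 38.0 ± 9.44 FPKM (SD, n = 3), 1.91-fold lower, with a log2 difference of -0.94 (SE 0.20, adjusted p = 0.0106, limma), just outside the strict call. It passed the strict call when P30 replicate 1 was left out (log2 difference -1.11), with the same summed FPKM (-1.11) and with surface gene scaling (-1.36), and missed the wide call with no minimum FPKM (adjusted p = 0.0519).

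The ratio of Tal1 to Lyl1 (FPKM) was 0.884, 1.04 and 1.22 at P5 and 2.18, 3.13 and 2.90 at P30. Scaling a sample by a single factor hardly moves a ratio taken within it, here of FPKM + 1 on the log2 scale. It was 0.057 ± 0.23 at P5 and 1.41 ± 0.27 at P30 (SD, n = 3), a difference of 1.35 (1.31 on quantile normalization, exact two-sided permutation p = 0.1, adjusted to 0.133 over 4 pairs of factors). The ratio lay higher in every P30 isolation, and 0.1 is the smallest p that 3 samples against 3 allow.

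Most pan-haematopoietic and macrophage markers were also lower at P30, and macrophages and other blood cells express Lyl1 too. Of 12 pan-haematopoietic and macrophage markers tested, 10 fell and none rose past the wide call, with a median log2 difference of -2.02. Their summed FPKM was 1590, 1591 and 1352 at P5 and 994, 353 and 660.4 at P30. Ptprc, which encodes CD45, fell from 27.1 ± 1.51 to 7.82 ± 0.187 FPKM (SD, n = 3, adjusted p = 0.000732, limma), and the macrophage receptor gene Csf1r fell from 226 ± 49.9 to 90.3 ± 69.8 FPKM (SD, n = 3, adjusted p = 0.0408, limma). Lyz2, the macrophage lysozyme gene, was at 204 ± 65.2 and 254 ± 128 FPKM and was not called. The part of blood cells in the difference of Lyl1, Fli1, Ets1, Ets2 or Mef2c was not tested.

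**Figure D2:**
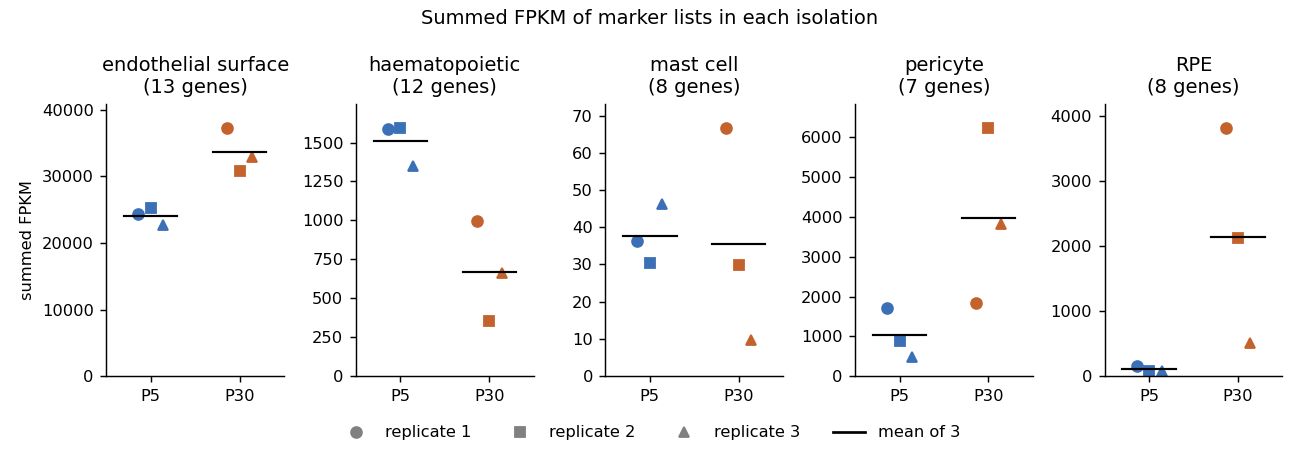
Summed FPKM of endothelial surface, haematopoietic, mast cell, pericyte and RPE genes in each isolation, one panel per list with a vertical axis starting at 0, points for the 3 P5 and 3 P30 isolations and a line at the mean of 3. The haematopoietic sum lay at 1352 to 1591 at P5 and at 353 to 994 at P30, while the RPE sum lay at 73.0 to 156 at P5 and at 507 to 3816 at P30.

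Markers of other blood lineages were read as well. Of 6 erythroid and megakaryocyte markers tested, 2 rose past the wide call and 1 fell, and Klf1, an erythroid transcription factor gene, was listed at 0 in every sample. The haemoglobin gene Hba-a1 was at 251 ± 134 and 658 ± 277 FPKM (SD, n = 3, adjusted p = 0.0491, limma), and the platelet factor gene Pf4 fell from 443 ± 31.6 to 68.4 ± 63.2 FPKM (SD, n = 3, adjusted p = 0.00945, limma). Itga2b, a megakaryocyte marker of the same list, did not fall with Pf4. It was at 2.66 ± 0.581 and 3.49 ± 1.85 FPKM (SD, n = 3), below the minimum for the test. Of 2 lymphocyte markers tested, Lck and Cd79b, none was called, and the summed FPKM of all 8 lymphocyte markers was at most 25.6 in any sample.

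Of 10 genes tested whose products join or oppose Tal1, Lyl1 and Gata2, 3 rose and 2 fell past the wide call. Of all genes tested 16.1% and 22.4% did so. Past the strict call 2 of the 10 rose and none fell, beside 5.89% and 5.82% of all genes. The median log2 difference was -0.086. On surface gene scaling 2 rose and 6 fell past the wide call, beside 8.39% and 47.5% of all genes. Lmo2, the bridging protein of the complex, was at 1248 ± 39.1 FPKM at P5 and 1197 ± 257 at P30, a log2 difference of -0.081 with a 95% interval of -0.44 to 0.27. Ldb1, the looping protein of the complex, was at 386 ± 17.2 and 381.5 ± 50.5 FPKM, a difference of -0.023 with an interval of -0.30 to 0.25. Both intervals spanned 0, and the isolations of the ages overlapped for both genes.

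The E protein genes Tcf3 and Tcf12, the DNA binding partners of Tal1 and Lyl1, fell by 0.52 (adjusted p = 0.0197, limma) and 0.56 (adjusted p = 0.0358, limma) on the log2 scale. The third E protein gene, Tcf4, was the most abundant of them at 479 ± 36.0 and 449.9 ± 33.3 FPKM and was not called. Id1 and Id3 encode inhibitors that bind E proteins and keep them from DNA. Id1 rose from 686 ± 92.8 to 2983 ± 809 FPKM (SD, n = 3), 4.35-fold, with a log2 difference of 2.09 (SE 0.22, adjusted p = 0.000585, limma). Id3 rose from 1269.6 ± 116 to 2870.4 ± 148 FPKM (SD, n = 3), 2.26-fold, with a log2 difference of 1.18 (SE 0.11, adjusted p = 0.000369, limma). Id2 was at 659 ± 29.5 and 584 ± 126 FPKM with overlapping isolations. Cbfa2t3, a corepressor of the complex, rose by 0.63 on the log2 scale (adjusted p = 0.00840, limma).

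Of the SOXF factors Sox7 fell and Sox18 was not called. Sox7, at chr14:64562511-64569569 on the plus strand, was at 549, 618 and 521 FPKM at P5 and at 244, 287 and 195 FPKM at P30. The lowest P5 isolation was well above the highest P30 isolation. Sox7 fell from 563 ± 50.1 to 242 ± 46.1 FPKM (SD, n = 3), 2.32-fold, with a log2 difference of -1.23 (SE 0.15, adjusted p = 0.00118, limma). It missed the strict call with no minimum FPKM and kept the wide call there.

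Sox18, at chr2:181404541-181406345 on the minus strand and mutated in lymphatic and vascular disease, was at 732, 797 and 653 FPKM at P5 and at 882, 548 and 936 FPKM at P30. The P30 isolations lay on both sides of those of P5, with P30 replicate 2 the lowest of all 6. The means were 728 ± 72.1 and 789 ± 210.0 FPKM (SD, n = 3), and the log2 difference of 0.082 (95% interval -0.40 to 0.56, adjusted p = 0.770, limma) changed sign to between -0.35 and -0.017 on quantile, summed FPKM and surface gene scaling and without P30 replicate 1 or 3. P30 replicate 2 also had the highest pericyte sum of the series, 6228 FPKM, and the lowest endothelial surface sum of its age, 30893 FPKM, and their part in its Sox18 level was not tested.

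Sox17, the third SOXF gene and not among the 10, rose. It was at 90.2, 86.0 and 67.5 FPKM at P5 and at 254, 221 and 194 FPKM at P30, with no overlap. The mean went from 81.2 ± 12.1 to 223 ± 30.2 FPKM (SD, n = 3), 2.74-fold, with a log2 difference of 1.45 (SE 0.15, adjusted p = 0.000611, limma). As a share of the summed FPKM of the 3 SOXF genes, Sox7 was 41.0% ± 0.973 at P5 and 19.9% ± 6.51 at P30, Sox17 was 5.91% ± 0.595 and 18.0% ± 3.18, and Sox18 was 53.0% ± 0.399 and 62.2% ± 9.51 (SD, n = 3). The sum itself was 1371 ± 129.95 and 1254 ± 172 FPKM with overlapping isolations.

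The ratio of Sox7 to Sox18 (FPKM) was 0.749, 0.775 and 0.797 at P5 and 0.276, 0.524 and 0.209 at P30. On the log2 scale of FPKM + 1 it was -0.37 ± 0.045 and -1.68 ± 0.68 (SD, n = 3), a difference of -1.31 (-1.20 on quantile normalization, exact two-sided permutation p = 0.1, adjusted to 0.133 over the 4 pairs). The P5 isolations lay within a narrow band, and the P30 isolations were all lower and spread more widely.

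The 4 ETS factors lie in the genome as neighbouring pairs in opposite orientation. Fli1 (chr9:32229793-32348974, minus strand) and Ets1 (chr9:32443806-32565405, plus strand) are 94.8 kb apart, and Erg (chr16:95580776-95808200, minus strand) and Ets2 (chr16:95923682-95942658, plus strand) are 115 kb apart, with no annotated protein coding gene within either gap. Both genes of the first pair and Ets2 of the second were lower at P30, and Erg was not. Summed over the 4, ETS expression was 3156, 3059 and 2789 FPKM at P5 and 2091, 2181 and 2233 FPKM at P30. The sum was lower in every P30 isolation.

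Ets1, which binds many VEGF responsive enhancers, had the highest level of the 10 at P5. Its FPKM was 1376, 1147 and 1099.5 at P5 and 689, 778 and 755 at P30. The ages were far apart, and P5 replicate 1 stood above the other P5 isolations. The mean fell from 1208 ± 148 to 740.4 ± 46.4 FPKM (SD, n = 3), 1.63-fold, with a log2 difference of -0.70 (SE 0.12, adjusted p = 0.00381, limma). At P30 it stood behind Sox18 and Ets2. The genes with the nearest profile over the 6 samples were Sema6a (distance 0.12), a transmembrane semaphorin gene, Rc3h1 (0.15), which encodes the RNA binding protein Roquin, and Kctd3 (0.17).

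Ets2, the closest relative of Ets1, was at 1028, 1106 and 993 FPKM at P5 and at 734, 733 and 843 FPKM at P30. All P30 isolations were below all P5 isolations. The mean fell from 1042 ± 57.6 to 770.1 ± 62.9 FPKM (SD, n = 3), 1.35-fold, with a log2 difference of -0.44 (SE 0.10, adjusted p = 0.0132, limma). Without P5 replicate 2 the call was lost (adjusted p = 0.0699). The FPKM ratio of Ets1 to Ets2 was 1.34, 1.04 and 1.11 at P5 and 0.938, 1.06 and 0.896 at P30, with overlap, and its log2 means of 0.21 ± 0.19 and -0.055 ± 0.13 (SD, n = 3) gave an exact two-sided permutation p of 0.2, also 0.2 after adjustment over the 4 pairs.

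Erg, an ETS factor that keeps ECs in the endothelial state and is largely restricted to them, was at 402, 398 and 358 FPKM at P5 and at 457, 458 and 356 FPKM at P30. The ages overlapped through the third isolation of each. The means were 386 ± 24.6 and 423 ± 58.7 FPKM (SD, n = 3), and the log2 difference of 0.13 had a 95% interval of -0.17 to 0.42 (adjusted p = 0.450, limma), and was -0.0086, -0.044 and -0.30 on quantile, summed FPKM and surface gene scaling. Erg was 12.9% ± 0.141 of the ETS sum at P5 and 19.6% ± 3.20 at P30 (SD, n = 3), with P30 replicate 3 the lowest of its age at 15.9%.

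Fli1, the nearest relative of Erg and a factor of ECs, megakaryocytes and other blood cells, was at 349.7, 408 and 338 FPKM at P5 and at 211, 212 and 280.1 FPKM at P30. All P30 isolations were below all P5 isolations, and P30 replicate 3 was the nearest to them. The mean fell from 365 ± 37.7 to 234 ± 39.6 FPKM (SD, n = 3), 1.56-fold, with a log2 difference of -0.65 (SE 0.14, adjusted p = 0.0110, limma). The call was lost without P5 replicate 2 (adjusted p = 0.0522) and with no minimum FPKM (adjusted p = 0.0503).

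The FPKM ratio of Erg to Fli1 was 1.15, 0.9747 and 1.06 at P5 and 2.17, 2.16 and 1.27 at P30. On the log2 scale of FPKM + 1 it was 0.082 ± 0.12 and 0.85 ± 0.44 (SD, n = 3), a difference of 0.77 (exact two-sided permutation p = 0.1, adjusted to 0.133 over the 4 pairs). Erg and Fli1 were at like levels at P5, and Erg was the more abundant in each P30 isolation, least so in P30 replicate 3.

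**Figure D3:**
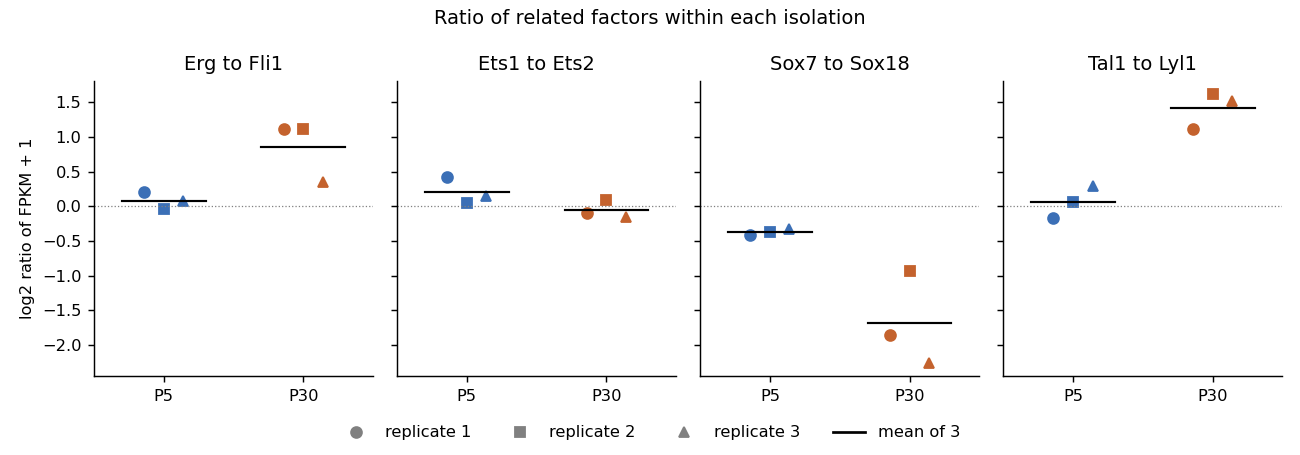
Log2 ratio of FPKM + 1 within each isolation for 4 pairs of related factors, with a point for each of the 3 P5 and 3 P30 isolations and a line at the mean of 3. Erg to Fli1 and Tal1 to Lyl1 lie higher in every P30 isolation, Sox7 to Sox18 lies lower in each, and Ets1 to Ets2 overlaps between the ages.

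Of 15 other ETS genes tested, 8 fell and 2 rose past the wide call, with a median log2 difference of -0.54, beside 22.4% and 16.1% of all genes tested. On surface gene scaling 9 fell and none rose, beside 47.5% and 8.39% of all genes. Elk3, an ETS factor that can repress its targets, was the most abundant of them and fell from 990.7 ± 14.2 to 554 ± 9.39 FPKM (SD, n = 3, adjusted p = 0.000457, limma). Elf2 fell from 357 ± 10.6 to 245 ± 28.8 FPKM (SD, n = 3, adjusted p = 0.00819, limma). Etv4, a factor downstream of FGF signalling, was the 1 past the strict call and fell from 13.98 ± 3.30 to 1.22 ± 1.38 FPKM (SD, n = 3), a log2 difference of -2.93 (SE 0.54, adjusted p = 0.00567, limma). Spic, also among the 8 that fell, was near the minimum for the test. It was at 5.8 ± 1.39 FPKM at P5 and 0.373 ± 0.647 at P30 (SD, n = 3). The part of blood cells in the differences of these ETS genes was not tested.

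Mef2c, at chr13:83643033-83806684 on the plus strand, was at 296, 274 and 285 FPKM at P5 and at 227, 248 and 249 FPKM at P30. The ages did not overlap, and both spreads were small. The means were 285 ± 10.8 and 241 ± 12.4 FPKM (SD, n = 3), and the log2 difference of -0.24 (SE 0.090, 95% interval -0.45 to -0.030, adjusted p = 0.0701, limma) did not pass the test. It passed with no minimum FPKM (adjusted p = 0.0471) and on quantile, summed FPKM and surface gene scaling (0.0311, 0.0101 and 0.00537). Muscle cells use Mef2c too. The skeletal muscle sum was 5.30 to 12.5 FPKM at P5 and 11.3 to 29.5 at P30, with none of the 2 markers tested called, and the smooth muscle sum, with all 5 markers tested higher, was 85.9 to 175 at P5 and 311 to 1084 at P30.

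Of 6 other MEF2 and class IIa histone deacetylase genes tested, 2 rose past the wide call and none fell, beside 16.1% and 22.4% of all genes tested, while on surface gene scaling none rose and 1 fell, beside 8.39% and 47.5%. Hdac7, a deacetylase of this class with a known role in ECs, was at 470.0 ± 30.5 and 454 ± 70.5 FPKM (SD, n = 3, adjusted p = 0.729, limma). Mef2a was at 334 ± 11.9 and 389.6 ± 52.6 FPKM (SD, n = 3, adjusted p = 0.193, limma). Mef2d rose by 0.48 and Hdac5 by 0.74 on the log2 scale (adjusted p = 0.00806 and 0.00183, limma).

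**Figure D4:**
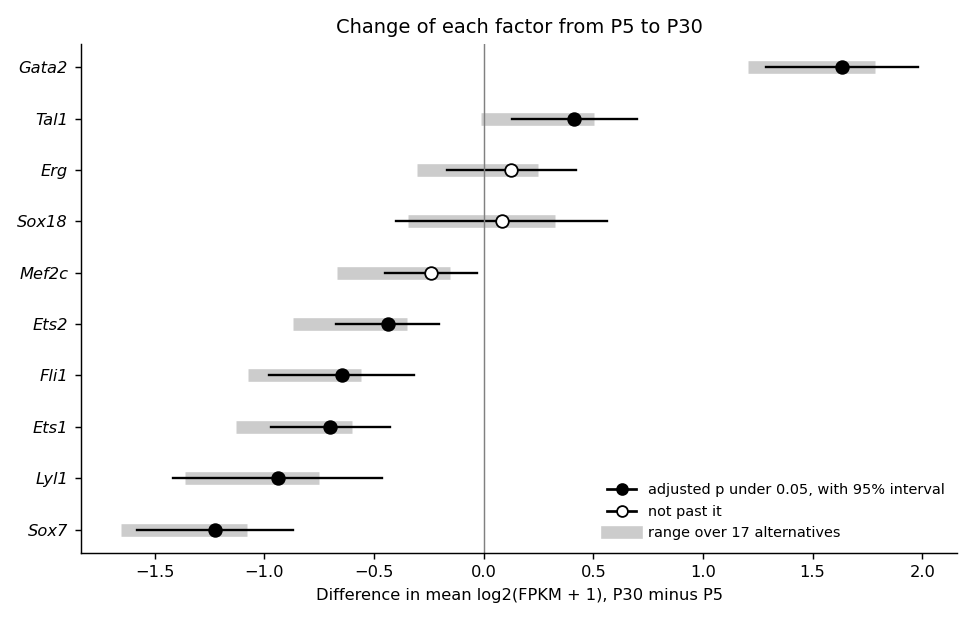
Log2 difference of FPKM + 1, P30 minus P5, for each of the 10 factors with its 95% interval from limma. A vertical line stands at 0. Thick grey bars give the range over the alternatives to the main fit, and points are open or filled by adjusted p. The median of all genes tested, which is not drawn, was -0.10. The intervals of Gata2 and Tal1 lie above 0, those of Fli1, Ets1, Ets2, Sox7, Mef2c and Lyl1 lie below 0, and those of Erg and Sox18 span it, while on surface gene scaling Tal1 is at -0.013.

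By level, the order at P5 was Ets1, Ets2, Sox18, Sox7, Erg, Fli1, Mef2c, Gata2, Tal1 and Lyl1. The isolations of Ets1 and Ets2, of Erg and Fli1, and of Tal1 and Lyl1 overlapped, and the other neighbours were apart. At P30 it was Sox18, Ets2, Ets1, Erg, Gata2, Sox7, Mef2c, Fli1, Tal1 and Lyl1. Isolations of neighbours were then apart only between Ets1 and Erg, Gata2 and Sox7, Fli1 and Tal1, and Tal1 and Lyl1. At both ages the 3 most abundant were the same genes, Ets1, Ets2 and Sox18, at the 97.5 to 99.1 percentile of mean FPKM among the genes tested, and Lyl1 was the lowest, above 60.3% at P5 and 41.1% at P30. The summed FPKM of all 10 was 5018, 5020 and 4504 at P5 and 4006, 3691 and 4202 at P30, lower in each P30 isolation. Such a sum weighs the abundant genes most. The means of Ets1 and Ets2 fell from 1208 to 740.4 and from 1042 to 770.1 FPKM. Those of Erg, Sox18, Tal1 and Gata2 were higher at P30, and the other means were lower.

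Textbook targets of these factors were compared beside them. Of 18 endothelial targets tested, 10 rose and 1 fell past the wide call, with a median log2 difference of 0.46, beside 16.1% and 22.4% of all genes tested. Quantile normalization left 3 that rose and 2 that fell with a median of -0.014, and scaling to the same summed FPKM left 4 and 2 with a median of 0.29. Surface gene scaling is not given for this list, since 12 of the 13 scaling genes are in it. Flt1, the VEGF receptor gene, rose from 852 ± 22.8 to 1942 ± 147 FPKM (SD, n = 3), 2.28-fold, past the strict call (adjusted p = 0.000278, limma). Emcn, a sialomucin gene, was at 3002 ± 66.3 and 5523 ± 357 FPKM (SD, n = 3, adjusted p = 0.00106, limma), and Cldn5, a tight junction gene, at 2982 ± 519.6 and 4432 ± 710.5 FPKM (SD, n = 3, adjusted p = 0.0373, limma), and on quantile normalization their log2 differences were -0.0096 and -0.19. Cdh5, the gene of the sorted antigen VE-Cadherin and a target of Erg, fell from 2971 ± 95.4 to 1885 ± 52.4 FPKM (SD, n = 3, log2 difference -0.66, adjusted p = 0.00205, limma).

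Of 11 other transcription factors of ECs tested, 3 rose and 2 fell past the wide call, beside 16.1% and 22.4% of all genes tested. The flow responsive factors Klf2 and Klf4 rose from 671 ± 109 to 3030.5 ± 615 FPKM (SD, n = 3), 4.52-fold, and from 497 ± 109 to 1809 ± 142 FPKM (SD, n = 3), 3.64-fold, with adjusted p = 0.000301 and 0.000297 (limma). Epas1, which encodes HIF-2 alpha, rose from 1349 ± 233 to 2583 ± 181 FPKM (SD, n = 3, adjusted p = 0.00292, limma). Bcl6b, an endothelial repressor gene, fell from 447 ± 54.0 to 188 ± 30.5 FPKM (SD, n = 3), 2.37-fold (adjusted p = 0.000981, limma).

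**Figure D5:**
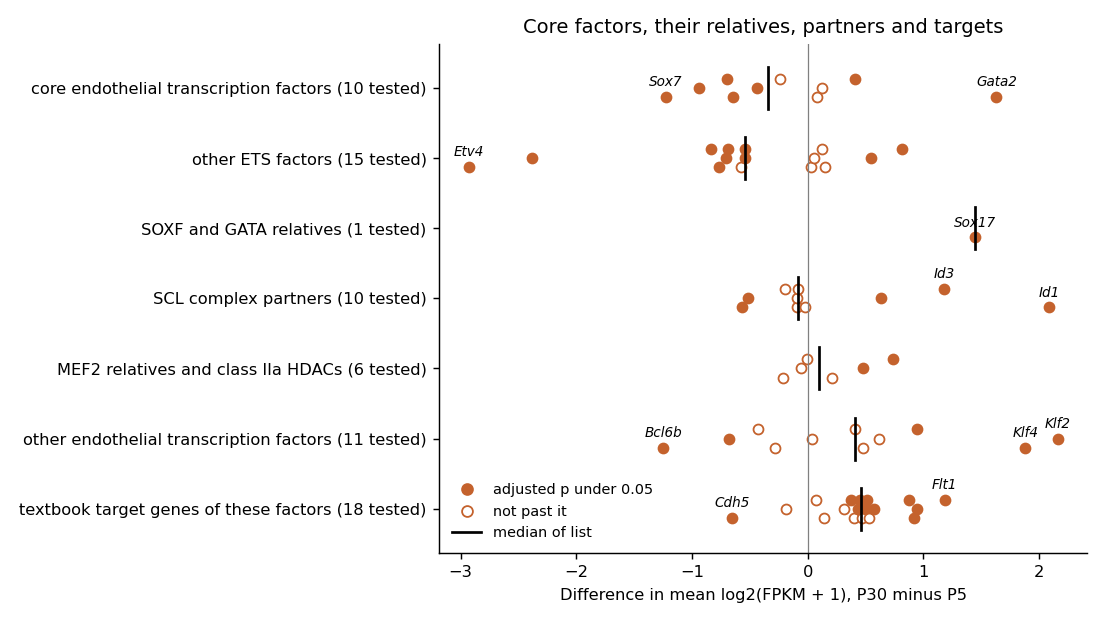
Log2 difference of FPKM + 1, P30 minus P5, for each tested gene of the 10 core factors and of 6 lists of relatives, partners and targets, with filled points past an adjusted p under 0.05 and vertical lines at each list's median. The other ETS genes have a median of -0.54 and the target genes 0.46 (-0.014 on quantile normalization), and Gata2, Sox17, Id1, Klf2 and Klf4 stand farthest to the right.

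Over the whole series, strict calls took in 735 genes as higher and 726 as lower, and wide calls 2011 and 2794. With samples scaled to the same summed FPKM these were 632 and 1070, and 1617 and 4344, and with surface gene scaling 466 and 1907, and 1046 and 5922. Median-of-ratios scaling moved them the other way, to 869 and 624, and 2397 and 2326. The median of all genes was -0.10 on the deposited scale, -0.27 with the same summed FPKM, -0.52 with surface gene scaling and -0.012 with median-of-ratios scaling. The sorted cells carried endothelial markers at high levels, summed over 13 surface genes to 22714 to 25217 FPKM at P5 and 30893 to 37218 at P30, and of these 8 rose and 1 fell past the wide call, but 3 and 2 on quantile normalization and 4 and 2 with the same summed FPKM. Markers of other cells also moved with age. Past the wide call, 4 of 7 pericyte, 5 of 5 smooth muscle, 4 of 7 fibroblast, 6 of 7 RPE, 4 of 6 photoreceptor and 1 of 6 melanocyte markers tested rose, and all 8 proliferation markers fell. Their part in the differences of the 10 factors was not tested. No label ties an isolation to a batch. The limma p-values weigh a difference against the spread between isolations of pooled animals, moderated over all genes tested. The spread between single animals was not measured.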

How the data were processed

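The FPKM values deposited by the authors, 1 per gene symbol and sample, were made by alignment to mm9 (TopHat) and by Cufflinks under GC and upper quartile normalization. The submitters' processing notes also name CASAVA 1.8.2 and FastQC. Other versions are not given in the sources used here. Read counts were not used here, so the depth is unknown and no counting interval or floor is given. A value of 0 may be a failed estimate. Low FPKM values showed no steps of single reads.

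From the deposited FPKM, log2(FPKM + 1) was fitted on age with limma 3.58.1 (lmFit, eBayes with trend) in R 4.3.3 over the genes whose mean FPKM reached 5 at either age, with Benjamini-Hochberg adjustment. Differences on this scale understate the change of genes with low FPKM. Standard errors and 95% intervals are those of the limma coefficient. The fit was tested on simulated data. Ratios of factors were compared by exact permutation (scipy 1.17.1). Figures used matplotlib 3.10.9.

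Samples were grouped by the age in their labels. The 10 factors and all lists were chosen with earlier results of these data known, so no list supports another. From the lists, genes past the strict limits (at most 4 per direction) and the 2 of highest mean FPKM were named. Ptprc, Mcpt4, Cma1, Tpsb2, Cpa3, Ms4a2, Fcer1a, Klf1, Itga2b, Cdh5 and the other partners, relatives and GATA genes named beyond this were chosen after their values were seen. Markers of other cell types were given mainly as counts and sums. Adgre1, Silv and Cdc2a were read under the symbols Emr1, Pmel and Cdk1, and Spi1 was not analysed here. Promoters came from RefSeq (GRCm38.p6) and were located in NCBIM37 by exact match with Python 3.11.15. A neighbouring factor was called apart where no isolation of one lay within the range of the other. The 17 alternatives were other pseudocounts and minimum values, no trend, a replicate block, 4 scalings and each isolation left out.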

Additional observations from a re-analysis of the deposited data

How the results depend on the processing

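Gata2 stayed higher and past the strict limits, and Fli1, Ets1, Ets2, Sox7, Mef2c and Lyl1 stayed lower, under all 17 alternatives, and Sox7 stayed past the strict limits in 16. Where values changed, the cause was not tested. Without a minimum FPKM, 242 genes were higher and 296 lower past the strict limits, and with surface gene scaling 466 and 1907. Leaving out 1 isolation gave 396 to 849 higher and 291 to 754 lower. Wide calls were 1046 higher and 5922 lower with surface gene scaling, 4344 lower with the same summed FPKM, and 1227 to 2253 higher and 1431 to 3001 lower with 1 isolation left out. Of the 10 factors, strict calls lower were 0 without a minimum (Sox7 lost), 2 with the same summed FPKM, 4 with surface gene scaling and 1 to 2 with 1 isolation left out (2 without P30 replicate 1). Strict calls higher stayed at 1. Wide calls higher were 1, with Tal1 lost, without a minimum, without a trend, with the same summed FPKM, with surface gene scaling and with the replicate block, and 1 to 2 with 1 isolation left out. Wide calls lower were 3 to 5 with 1 isolation left out, and 3 without P5 replicate 2, where Fli1 and Ets2 were lost. The log2 difference of Erg was -0.0086 with quantile normalization, -0.044 with the same summed FPKM and -0.30 with surface gene scaling, that of Sox18 -0.16, -0.088 and -0.35 and, with 1 isolation left out, -0.060 to 0.32, and that of Tal1 -0.013 with surface gene scaling. Whether replicate numbers pair the isolations is not known. The r between the deviations of isolations sharing a number was -0.0905 to -0.0305, and that of isolations of different number -0.0273 to 0.104. Deviations from a mean of only 3 isolations do not settle it. The replicate block gave 585 higher and 524 lower strict calls and 1704 and 2191 wide calls, and of the 10 factors it changed the call of Tal1 only. The differences in the ratio were 0.64 to 1.03 for Erg to Fli1, -0.34 to -0.15 for Ets1 to Ets2, -1.68 to -1.02 for Sox7 to Sox18 and 1.24 to 1.504 for Tal1 to Lyl1 with 1 isolation left out. With 3 isolations per age and no counts, small differences such as those of Erg, Sox18 and Mef2c cannot be placed more closely than their intervals.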
